A study of Rattus norvegicus with 6 samples.

Results

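The Tmed genes encode the p24 proteins, transmembrane cargo receptors that cycle between the endoplasmic reticulum and the Golgi apparatus. Their transcripts were measured in the liver of 6 male rats on 1-colour Affymetrix arrays, 1 array per animal. All probe sets whose annotated gene symbol is Tmed followed by a number were taken: 15 of 31099 probe sets, for 10 genes. The family was selected on its name with the treated and control signals of these arrays already known, so its differences between diets are given as a description, and no test of them is used as support. Of the 15 probe sets, 13 passed the filter on low signals, which asked for a signal over the median of its array on 3 or more of the 6 arrays. These 13 stand for 9 genes. By comparison, 50.8% of all 31042 probe sets that are not Affymetrix controls passed.

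The rats were of the stock BrlHan:WIST@Jcl(GALAS), 7 weeks old at sampling. They had been bought at 4 weeks of age and quarantined for 1 week. The control group of 3 animals ate a diet with 0 ppm of the test chemical, and the treated group of 3 ate a diet containing epsilon-momfluorothrin, a pyrethroid insecticide, both for 2 weeks. The dietary level is 3000 ppm in the titles and in the protocol of the labels, but 5000 ppm in the characteristics. The level is therefore not settled, and the group is called treated here. The samples are pieces of whole liver, in which fewer cells of a type and less RNA per cell cannot be told apart.

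As background, p24 proteins span the membrane once. They carry a lumenal GOLD domain, a coiled coil and a short cytosolic tail that binds the COPII coat for export from the endoplasmic reticulum and the COPI coat for return from the Golgi. They work as hetero-oligomers of alpha, beta, gamma and delta members, and are best known for sorting proteins with a GPI anchor into transport vesicles. Hepatocytes secrete most plasma proteins through this route. Tmed2 is the beta member and Tmed10 the delta member, and loss of either destabilises its partners. Tmed4 and Tmed9 are alpha members, and Tmed1, Tmed3, Tmed5, Tmed6 and Tmed7 are gamma members. Tmed8 shares the GOLD domain but stands outside these subfamilies.

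The 10 genes lie on 7 chromosomes of assembly GRCr8, with Tmed8 and Tmed10 on chromosome 6, Tmed1 and Tmed3 on chromosome 8, and Tmed4 and Tmed5 on chromosome 14. The RefSeq gene table of that assembly also names pseudogene copies of Tmed2 (2 copies), Tmed4, Tmed5 and Tmed10 (1 copy each). Probe sets of these genes could take up signal from such copies, and the probe sequences were not used here. Promoters are shown for Tmed1 and Tmed3, which had the largest differences between the diets among the members that passed the filter on low signals. Those of Tmed2 and Tmed7, whose brightest probe sets had groups that did not overlap, are shown as well. Each line gives the 250 bases before the transcript start that the RefSeq promoter table of GRCr8 holds for the gene, 5′ to 3′ on the gene's strand, with the box CCAAT in capitals. For Tmed2 and Tmed7 that start is the outer end of the annotated gene. For Tmed1 it lies 4206 bases inside the gene's annotated span and for Tmed3 376 bases inside it, so these windows precede 1 transcript start and not the outermost one. CCAAT is the sequence that the factor NF-Y binds.

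Tmed1, chr8:28338648-28338897, minus strand: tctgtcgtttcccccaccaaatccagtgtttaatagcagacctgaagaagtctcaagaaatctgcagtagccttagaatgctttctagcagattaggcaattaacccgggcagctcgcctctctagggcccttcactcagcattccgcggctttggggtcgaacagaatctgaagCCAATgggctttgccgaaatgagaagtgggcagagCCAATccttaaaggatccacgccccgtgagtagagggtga

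Tmed2, chr12:37722607-37722856, minus strand: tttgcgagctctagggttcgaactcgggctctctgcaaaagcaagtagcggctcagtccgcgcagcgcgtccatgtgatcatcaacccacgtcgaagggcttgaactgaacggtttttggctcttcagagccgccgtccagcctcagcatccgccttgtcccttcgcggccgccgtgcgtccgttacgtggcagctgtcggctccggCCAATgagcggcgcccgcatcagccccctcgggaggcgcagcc

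Tmed3, chr8:99129278-99129527, minus strand: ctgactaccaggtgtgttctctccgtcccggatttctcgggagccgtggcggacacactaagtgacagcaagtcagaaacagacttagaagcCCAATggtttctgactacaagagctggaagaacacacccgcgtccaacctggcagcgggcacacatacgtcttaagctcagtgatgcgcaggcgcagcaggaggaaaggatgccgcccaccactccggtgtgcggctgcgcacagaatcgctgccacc

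Tmed7, chr18:41512244-41512493, minus strand: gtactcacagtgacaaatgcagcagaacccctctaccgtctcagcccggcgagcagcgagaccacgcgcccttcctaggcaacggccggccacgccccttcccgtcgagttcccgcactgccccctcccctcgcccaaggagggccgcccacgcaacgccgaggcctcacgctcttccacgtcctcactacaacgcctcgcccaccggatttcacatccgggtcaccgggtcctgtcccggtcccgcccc

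In these windows CCAAT begins 75 and 40 bases before the listed start of Tmed1, 43 before that of Tmed2 and 158 before that of Tmed3, and the window of Tmed7 holds none. Searched on both strands, 7 of the 10 Tmed promoters held CCAAT, against 34.3% of 27457 rat promoters of the same length. Those without it were Tmed4, Tmed7 and Tmed8. The unfolded protein response element TGACGTGG was in 0 of the 10 (0.55% of all promoters), and the endoplasmic reticulum stress element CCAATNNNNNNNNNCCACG, whose first 5 letters overlap the CCAAT search, also in 0 (0.0765%). CpG dinucleotides numbered 3 in the promoter of Tmed6 and 9 to 31 in the other 9, where the median over all promoters was 6. Matches of this kind describe letters in a window and no factor's binding was measured.

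Every array had been scaled to a trimmed mean signal of about 100. The array medians were lower in treated livers, 23.1 to 26.5, than in control livers, 27.0 to 29.4, and differences between the groups moved with brightness. Each Tmed probe set is therefore set beside the 500 genes nearest to it in mean log2 signal, whose median log2 difference ran from -0.10 beside Tmed1, the dimmest that was kept, to 0.05 beside Tmed2 (1398824_at). Log2 differences are treated minus control ± SE from a limma fit over all 15778 kept probe sets. None of the 13 Tmed probe sets passed an adjusted p of 0.05 in that limma fit, in which 0.171% of all kept probe sets did. At an unadjusted p under 0.05, 3 of the 13 did, where 11.6% of all kept probe sets did. Since the values were known when the family was chosen, nothing is read from these counts.

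**Figure D1:**
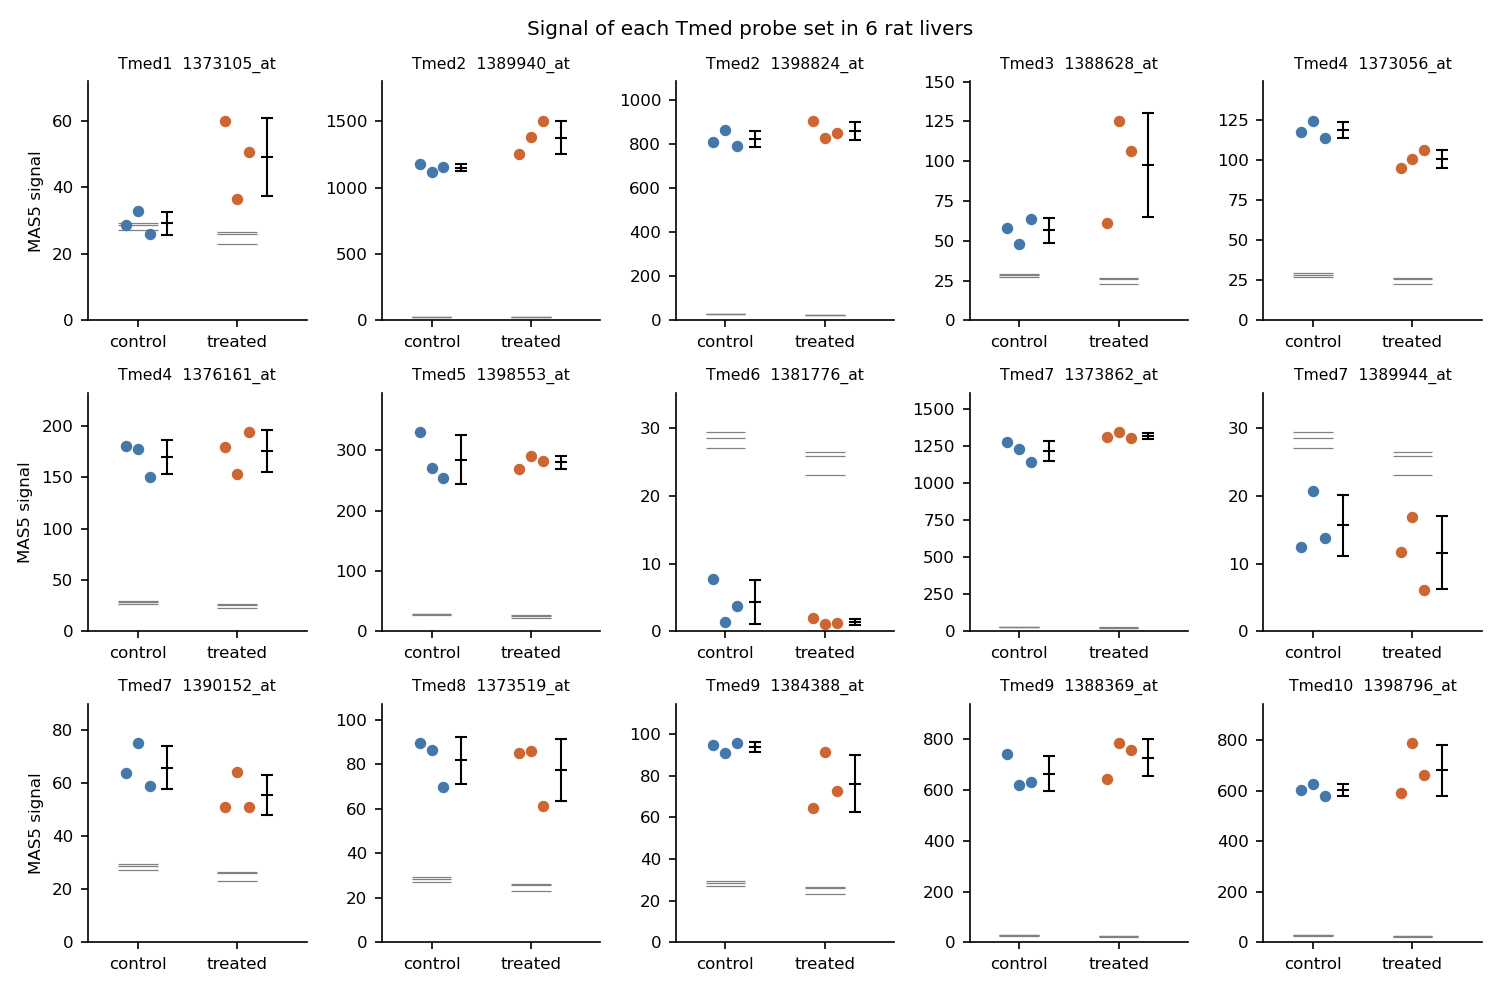
MAS5 signal (linear scale from 0, a separate axis for each probe set) of the 15 Tmed probe sets in 3 control and 3 treated livers. Points are animals, black bars the mean and SD of a group, and grey lines the medians of the arrays of that group. Tmed1 (1373105_at) lies near the array medians in control livers and above them in treated livers, and Tmed6 (1381776_at) lies below them on all arrays.

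Among the gamma members, Tmed1 and Tmed3 stood apart from the other Tmed genes. Tmed1, also described as a binding partner of the interleukin receptor-like protein ST2, read 28.5, 32.8 and 26.0 on control arrays 1 to 3 and 59.8, 36.5 and 50.5 on treated arrays 1 to 3. The groups did not overlap, and treated replicate 2 was close to the highest control. The means were 29.1 ± 3.47 and 48.9 ± 11.7 (SD, n = 3 each), a log2 difference of 0.73 ± 0.24 (SE) or 1.65-fold. Control replicate 3 was below its array median, so the control level of Tmed1 lies at the edge of what was kept. Of the 500 genes nearest in brightness, 99.4% had a lower log2 difference, and their median was -0.10.

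Tmed3, also a gamma member, read 57.8, 48.2 and 63.9 on the control arrays and 61.2, 125 and 107 on the treated arrays. Treated replicate 1 lay within the control range, and treated replicates 2 and 3 lay well above it. The means were 56.6 ± 7.93 and 97.6 ± 32.8 (SD, n = 3 each), a log2 difference of 0.73 ± 0.26 (SE) or 1.66-fold. The difference exceeded that of 99.6% of the 500 nearest genes, whose median was -0.03. The spread of Tmed3 within groups was a log2 SD of 0.41, where these genes had a median of 0.20, and 92.2% of them varied less. Without treated replicate 1 the log2 difference of Tmed3 was 1.04, and without treated replicate 2 it was 0.52. That of Tmed1 was 0.57 without treated replicate 1 and 0.92 without treated replicate 2. The animal with the lowest treated signal was thus replicate 2 for Tmed1 and replicate 1 for Tmed3.

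Tmed7, a gamma member known for carrying the receptor TLR4 to the cell surface, was measured by 3 probe sets that differed. The brightest (1373862_at) read 1276, 1233 and 1146 on the control arrays and 1312, 1343 and 1302 on the treated arrays. The groups did not overlap, by a narrow margin, and the log2 difference was 0.12 ± 0.08 (SE), near the median of 0.04 for genes of equal brightness. A dimmer probe set (1390152_at) read 63.5, 74.9 and 58.9 on the control arrays and 51.0, 64.2 and 51.1 on the treated arrays, with overlapping groups and a log2 difference of -0.25 ± 0.17 (SE). The third (1389944_at) stayed under the array median on all 6 arrays, reading 12.4 to 20.8 on the control arrays and 6.18 to 16.9 on the treated arrays, so no fold is given.

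Tmed5, another gamma member, read 330, 270 and 254 on the control arrays and 269, 291 and 282 on the treated arrays. The treated values lay inside the control range, at a log2 difference of -0.01 ± 0.12 (SE). Tmed6, a gamma member with restricted tissue expression, had signals of 1.37 to 7.76 in control and 1.12 to 1.92 in treated livers. It was below the array median on all 6 arrays and has no fold.

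The beta and delta members lay far above the array medians in all livers. Tmed2 read 1177, 1119 and 1158 on the control arrays and 1251, 1381 and 1500 on the treated arrays on its brighter probe set (1389940_at). All treated values lay above all control values, with means of 1151 ± 29.6 and 1377 ± 124 (SD, n = 3 each) and a log2 difference of 0.25 ± 0.09 (SE) or 1.19-fold. Among genes of equal brightness, 88.0% had a lower difference. The other probe set of Tmed2 (1398824_at) did not repeat this, at 809, 864 and 793 on the control arrays and 902, 825 and 848 on the treated arrays. Its groups overlapped, and its log2 difference of 0.06 ± 0.08 (SE) was close to the median of 0.05 for its own neighbours in brightness.

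Tmed10, also called Tmp21, read 605, 626 and 580 on the control arrays and 592, 789 and 663 on the treated arrays. Treated replicate 1 lay inside the control range and the other 2 above it. The means were 604 ± 23.3 and 681 ± 99.7 (SD, n = 3 each), a log2 difference of 0.16 ± 0.11 (SE), which exceeded that of 80.0% of genes of equal brightness. Without treated replicate 2 the log2 difference of Tmed10 was 0.05.

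Both alpha members had a pair of probe sets that went opposite ways. For Tmed9 the brighter probe set (1388369_at) read 743, 619 and 629 on the control arrays and 643, 783 and 755 on the treated arrays, a log2 difference of 0.13 ± 0.11 (SE). The dimmer (1384388_at) read 94.9, 91.0 and 95.6 on the control arrays and 64.5, 91.4 and 72.8 on the treated arrays, a log2 difference of -0.31 ± 0.15 (SE). The groups overlapped on both. The dimmer probe set's difference was above that of only 10.2% of genes of equal brightness, and the brighter one's above that of 73.2%.

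For Tmed4 the brighter probe set (1376161_at) read 181, 177 and 151 on the control arrays and 180, 153 and 194 on the treated arrays, a log2 difference of 0.05 ± 0.13 (SE). The dimmer (1373056_at) read 118, 124 and 114 on the control arrays and 95.3, 101 and 107 on the treated arrays. Here all treated values lay below all control values, with means of 119 ± 5.13 and 101 ± 5.74 (SD, n = 3 each) and a log2 difference of -0.24 ± 0.11 (SE). It varied little within groups: its log2 SD was 0.07, and only 5.2% of genes of equal brightness varied less. Tmed8, outside the subfamilies, read 89.5, 86.3 and 69.9 on the control arrays and 85.2, 86.1 and 61.2 on the treated arrays. Its groups overlapped, at a log2 difference of -0.09 ± 0.18 (SE), which was 0.07 without treated replicate 3 and -0.20 without control replicate 3.

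**Figure D2:**
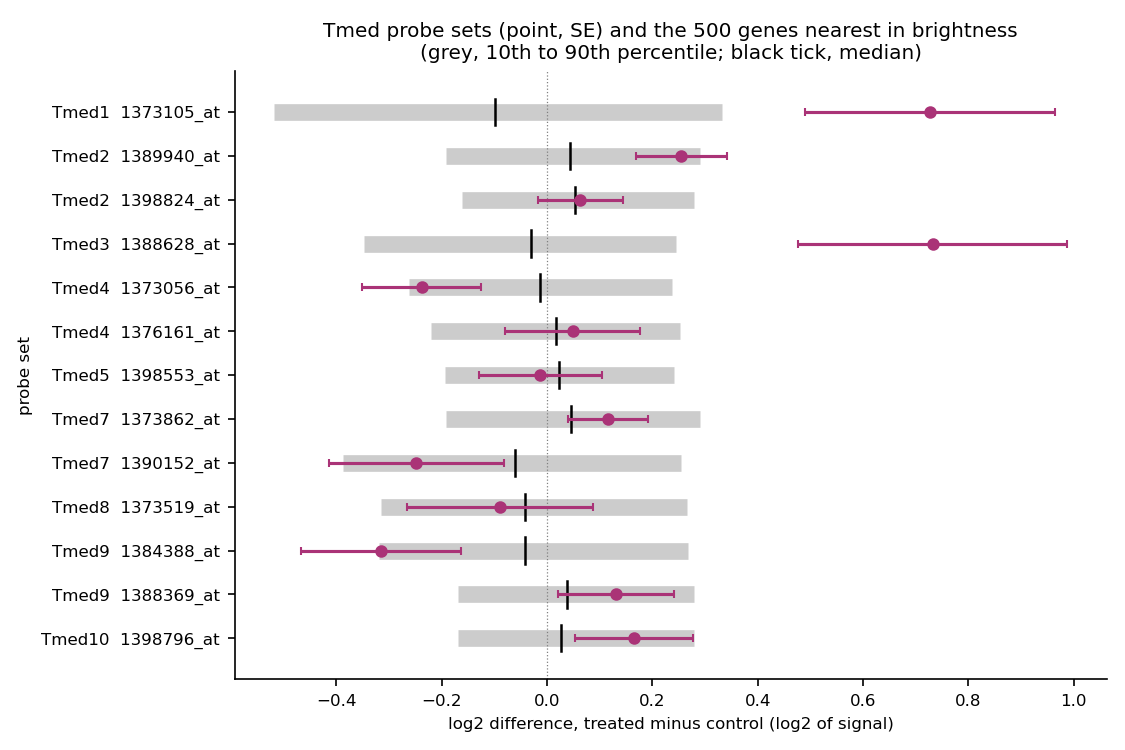
Log2 difference (treated minus control, x axis) of the 13 Tmed probe sets that passed the filter on low signals, as points with SE. The grey bar spans the 10th to 90th percentile, and the black tick marks the median, of the 500 genes nearest in brightness. Tmed1 and Tmed3 lie to the right of their grey bars and the other 11 inside them.

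Over the 13 probe sets, 8 had a higher mean in treated livers and 5 a lower one on the log2 scale, and the same 8 lay above the median of their neighbours in brightness. All treated values lay above all control values for 3 of them (Tmed1, Tmed2 and Tmed7), where 7.4% of all kept probe sets did. They lay below for 1 (Tmed4), where 10.4% did. Among genes of equal brightness, the share above was 4.6% for Tmed1, 20.4% for Tmed2 (1389940_at) and 20.6% for Tmed7 (1373862_at). Groups apart in this way were thus less rare at the brightness of Tmed2 and Tmed7 than over all kept probe sets. The share below was 8.2% among genes as bright as Tmed4 (1373056_at). Beyond the 90th percentile of their neighbours lay 2 of the 13 probe sets (Tmed1 and Tmed3), and below the 10th percentile 0. The spread within groups was under the median of the neighbours for 7 of the 13. With 1 probe set per gene, the brightest, the median log2 difference over the 9 genes was 0.13, beside -0.01 over all 9200 genes. That median rests on the choice of probe set. With the mean over the kept probe sets of a gene it was -0.013, since in each of the 4 genes with more than 1 kept probe set the dimmer one had the lower log2 difference. With that mean Tmed4, Tmed7 and Tmed9 changed sign, to -0.09, -0.07 and -0.09.

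Scaling moved the values of the whole table. Centring each array on its median raised the median of all genes from -0.01 to 0.16, and under it all 9 Tmed genes were higher in treated livers, with Tmed5 and Tmed8 changing sign to 0.16 and 0.08. Centring adds the same amount to every gene, so it leaves each gene's place among its neighbours in brightness as it was, at 7 of the 9 above their median. Tmed1, Tmed2, Tmed3 and Tmed10 were higher in treated livers, and above the median of genes of equal brightness, in every setting that kept them, including each that left out 1 array. For Tmed10 the margin over that median was only 0.01 without treated replicate 2. Leaving out 1 array changed the sign for Tmed4, Tmed5 and Tmed8: Tmed4 ranged from -0.03 to 0.14, Tmed5 from -0.09 to 0.10 and Tmed8 from -0.20 to 0.07. Tmed7 and Tmed9 kept their sign, at 0.07 to 0.15 and 0.08 to 0.22. For Tmed9 the value was 0.22 without control replicate 1 or without treated replicate 1, and its groups then did not overlap. Tmed1 and Tmed3 were kept in 15 of the 16 settings and dropped by the stricter filter at the 70th percentile.

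**Figure D3:**
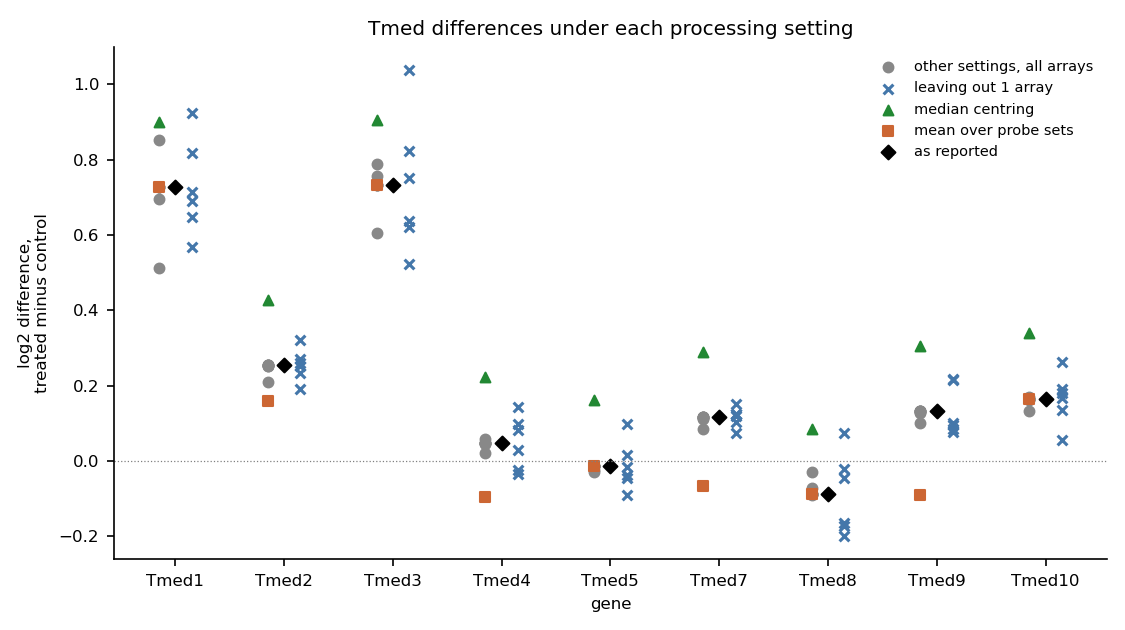
Log2 difference (treated minus control, y axis) of the 9 Tmed genes that passed the filter, under each processing setting. Diamonds are the values as reported, crosses leave out 1 array, triangles centre each array on its median, squares average the probe sets of a gene, and grey circles are the remaining settings. Squares fall below 0 for Tmed4, Tmed7 and Tmed9, and triangles lie above 0 for all 9 genes.

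The 5 genes whose centred log2 signals lay nearest to the median profile of the 9 Tmed genes, by root mean square difference over the 6 arrays, were Senp6, Kxd1, Zc3h15, Khk and Tarbp2, at 0.02 to 0.03. Tmed7 was nearest among the members at 0.05 and ranked 40 among all 9200 genes, while Tmed1 and Tmed3 ranked 8080 and 8348. Between them, Tmed9, Tmed2, Tmed10, Tmed5, Tmed4 and Tmed8 ranked 245, 410, 744, 1120, 2011 and 5576. The profile is the median of these same genes, so some nearness of members is built in. The distance also grows with a gene's own spread within groups. The median profile was thus nearer to the bright members than to the pair with the largest differences, and no more is read from it.

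The coats and partners of the p24 proteins were read in the same fit, as 6 lists of 147 genes of the secretory pathway, of which 129 were measured. None passed the adjusted threshold in limma, where 0.217% of the 9200 genes did. At an unadjusted p under 0.05, 8.53% of the 129 did (11 genes), where 12.2% of all genes did. All treated values lay above all control values for 13 of the 129, where 9.04% of all genes did, and below for 5, where 9.23% did. The median log2 difference over the 129 was 0.02.

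Among 15 genes of the COPII coat and its exit sites, 0 passed and the median was 0.02. Sec23b, a subunit of the inner COPII coat, read 308, 290 and 299 on the control arrays and 380, 390 and 395 on the treated arrays. The groups were well apart, at 0.38 ± 0.09 on the log2 scale (SE, adjusted p = 0.172 in limma). Sec24b, the cargo-binding partner of Sec23, was at 0.33 ± 0.17 (adjusted p = 0.496 in limma). Among 17 genes of the COPI coat and its Arf cycle, 0 passed and the median was 0.07, with the coat subunit Copz1 at 0.28 ± 0.10 and the small GTPase Arf1, which recruits the coat, at 0.15 ± 0.07 (SE, adjusted p = 0.342 and 0.442 in limma).

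Among 17 other cargo and retrieval receptors, 0 passed and the median was 0.06. The Golgi membrane protein Yipf5 and the export receptor Bcap31 were both at 0.27 ± 0.09 (SE, adjusted p = 0.305 and 0.327 in limma). Among 38 tethers and SNAREs, 0 passed and the median was 0.01. Sec22b, a SNARE of the vesicles between endoplasmic reticulum and Golgi, read 246, 233 and 238 on the control arrays and 320, 292 and 335 on the treated arrays. Its groups did not overlap and it differed by 0.40 ± 0.10 on the log2 scale (SE, adjusted p = 0.194 in limma). Napa, which helps to take SNARE complexes apart, was at 0.22 ± 0.09 (SE, adjusted p = 0.431 in limma).

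Among 19 genes that make and remodel GPI anchors, 0 passed and the median was -0.05, with Pigp at 0.21 ± 0.09 and the transamidase subunit Pigs at -0.26 ± 0.11 (SE, adjusted p = 0.425 and 0.429 in limma). Among 23 endoplasmic reticulum chaperones and unfolded protein response genes, 0 passed and the median was 0.04. Herpud1, a factor in degradation of misfolded proteins, was at 0.51 ± 0.18 and Edem1, which marks glycoproteins for that degradation, at 0.36 ± 0.15 (SE, adjusted p = 0.349 and 0.421 in limma).

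**Figure D4:**
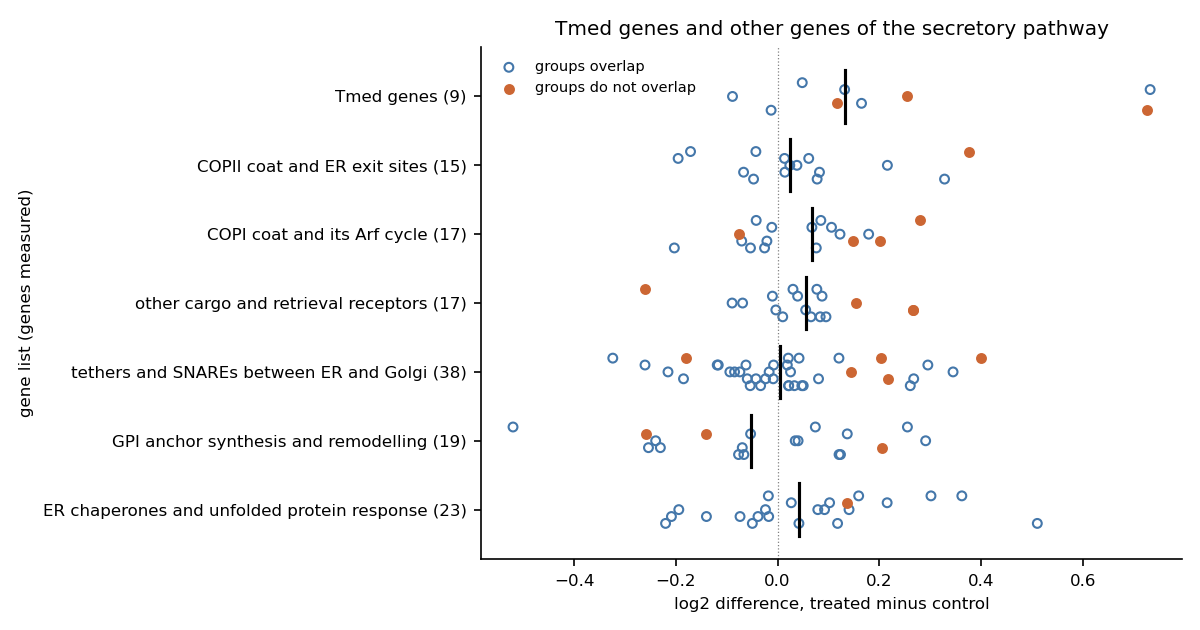
Log2 difference (treated minus control, x axis) of the measured Tmed genes and of the genes of 6 lists of the secretory pathway. Each point is a gene, filled where all treated values lay on one side of all control values, and the black line is the list's median. Tmed1 and Tmed3 lie farther to the right than any other gene drawn.

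Markers of liver cell types were read beside these values. All 8 hepatocyte markers with a probe set were above the array median on all arrays, as were the 4 Kupffer cell and the 6 endothelial markers, and 5 of 6 exocrine pancreas markers were below it on all arrays. Of the 4 cholangiocyte markers, Epcam alone was above the array median on all arrays, and Krt7 and Spp1 were below it on all arrays. Epcam read 67.1, 83.1 and 95.1 on the control arrays and 138, 107 and 134 on the treated arrays, without overlap. The sum of all 4 was 97.3 to 126 in control and 146 to 170 in treated livers, and without Epcam it was 21.8 to 43.0 and 29.8 to 39.3, with overlapping groups. The summed markers of the other cell types also overlapped between the groups. They were 47661 to 52078 in control and 42586 to 48670 in treated livers for hepatocytes, 788 to 975 and 739 to 816 for Kupffer cells, 2267 to 2606 and 2531 to 2740 for endothelial cells, and 1824 to 2392 and 2062 to 2195 for stellate cells. Among the markers that passed the filter on low signals, those besides Epcam whose groups did not overlap were of hepatocytes and endothelial cells. They were Cps1, Apoh and Ttr of hepatocytes and the endothelial Eng, all lower, and the endothelial Lyve1, higher. They were 3 of 8 hepatocyte markers, lower, and of 6 endothelial markers 1 lower and 1 higher. Over all genes, groups without overlap made up 9.23% lower and 9.04% higher. The part of any of these in the Tmed values was not tested.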

How the data were processed

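The values the authors deposited are linear probe set intensities. The tool was MAS5, per the submitters' processing notes, which name no version or setting. The 6 arrays, 3 per group, were used as deposited, without further scaling. Of 31099 probe sets, 57 Affymetrix controls were left out, and 15778 with a signal above the array median on at least 3 arrays were kept. Gene symbols came from the platform annotation, updated by gene ID through the RefSeq table of GRCr8; probe sets with several symbols were not named. A gene was represented by its brightest kept probe set.

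The groups were compared on log2 signals, without a pseudocount, by limma 3.58.1 under R 4.3.3 (lmFit and then eBayes, intensity trend, 2-sided, Benjamini-Hochberg over all kept probe sets, threshold 0.05), without a block. The fit was tested on simulated arrays. The members and the gene lists were chosen with earlier results of these data known. All Tmed genes are named. From each list of the secretory pathway the rule named up to 3 genes past the threshold or, where none was, the 2 with the smallest p; the 5 nearest profiles left out predicted loci. Promoters came from RefSeq, 1 per gene. Replicates are separate animals per the labels, which give no batch. The number of arrays limits the precision.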

Additional observations from a re-analysis of the deposited data

How the results depend on the processing

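Alternatives changed the filter, the scaling, the variance model, the pseudocount (16), the weighting of arrays, the probe set rule, the replicate block and the number of nearest genes (200 or 1000), and left out each array in turn. Genes called, 20 of 9200, were 50 with median centring, 2 in eBayes without an intensity trend and 4 to 21 leaving out 1 array, with 4 without treated replicate 2, 6 without treated replicate 3 and 13 without treated replicate 1. With a replicate block they were 13. The labels do not say that equal numbers pair the animals. Deviations from the group means correlated at -0.10, 0.10 and -0.06 over kept probe sets for animals of equal number. Control replicate 1 correlated best with treated replicate 3. With 3 animals per group these correlations depend on each other, so they cannot settle whether animals were paired. The median log2 difference over Tmed genes, 0.13, was 0.31 with median centring, -0.013 with the mean over probe sets and 0.10 to 0.22 leaving out 1 array. The Tmed genes whose groups did not overlap, 3 of 9, were 5 with median centring, when 25.5% of all genes were apart. Leaving out 1 array they were 3 to 6, with 5 without control replicate 3 and 6 without treated replicate 1. Of the 5 without control replicate 3, 4 were higher in treated livers and 1, Tmed8, was lower. Leaving out an array put 26.0% to 30.1% of all genes apart, against 18.3% in the setting reported. The number of Tmed probe sets above the median of genes of equal brightness was 8 of 13 with 200, 500 or 1000 genes. No gene of the secretory pathway lists passed the threshold in limma under any of these settings. Signals near the array median, such as Tmed1 in control livers, limit how well a fold can be read, and the table used here holds no detection calls.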
